A study of Mus musculus with 6 samples.

Results

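The expression of 10 genes that act on or report WNT/β-catenin signaling was examined in mammary epithelial cells (MEC) and in tumor cell lines that lack both JNK genes. The group was made of the β-catenin feedback genes *Axin2*, *Nkd1*, *Nkd2*, *Notum*, *Rnf43*, *Znrf3* and *Sp5* and of the R-spondin receptor genes *Lgr4*, *Lgr5* and *Lgr6*. Members were listed by symbol and not by a cut on their values, but with earlier results of these data known. Each of the 10 had an entry of its own among the 37753 entries with values in the expression table.

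RNA was sequenced from 3 MEC preparations and from 3 tumor cell lines, called 199, 233 and 336, with 1 library each. All 6 came from the C57/Bl6J strain and carried *Wap-Cre*, a transgene that lactation induces and that recombined in luminal but not in cytokeratin 5-positive myoepithelial cells. The MEC libraries (genotype WAPCre+) were primary cultures on collagen I, each pooled from 3 to 5 virgin females that were 10 to 12 weeks old. The ME-KO lines (genotype Mapk8KO Mapk9KO Cre+) grew out of mammary tumors of parous females with floxed *Mapk8* and *Mapk9* alleles, were kept on collagen I for 2 passages and then moved to standard dishes. No age was given for the animals behind the individual lines. Across the cohort of this genotype, the paper reports palpable tumors at a much later age than that of the MEC donors. Genotype, tumor origin, parity, age, culture surface and time in culture changed together between the groups, so their parts cannot be told apart.

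In canonical WNT signaling, a WNT ligand binds a Frizzled receptor with LRP5 or LRP6, the complex that destroys β-catenin is held back, and β-catenin joins TCF/LEF factors at its target genes. Several of those targets dampen the signal in turn. AXIN2 is a scaffold of the destruction complex, the NKD proteins bind Dishevelled, NOTUM is a secreted enzyme that strips the lipid from WNT, and RNF43 and ZNRF3 are membrane ubiquitin ligases that remove Frizzled from the cell surface. R-spondins, bound by LGR4, LGR5 or LGR6, clear these ligases and so raise the response to WNT. SP5 is a zinc finger transcription factor induced by β-catenin. In the mammary gland *Axin2* is used as a reporter of WNT-responsive cells, and *Lgr5* and *Lgr6* have been used to label stem or progenitor cells.

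The 10 genes lie on 6 mouse chromosomes (GRCm38, GENCODE annotation), and 4 of them share chromosome 11. On the plus strand are *Axin2* (chr11:108920349-108950783), *Rnf43* (chr11:87662722-87735539), *Nkd1* (chr8:88521354-88594884), *Sp5* (chr2:70474923-70477729) and *Lgr4* (chr2:109917647-110014257). On the minus strand are *Notum* (chr11:120653788-120661175), *Znrf3* (chr11:5276324-5444847), *Nkd2* (chr13:73818534-73847631), *Lgr5* (chr10:115450311-115587780) and *Lgr6* (chr1:134983301-135105276).

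Promoter windows, from 250 bases before to 50 bases after a RefSeq gene start, were read for 7 of the 10 genes and not for *Lgr5*, *Notum* or *Znrf3*. They were searched on both strands for 4 TCF/LEF-type words, CTTTG with A or T at each of the next 2 bases, no pair of which can match the same bases on the same strand. Of all 32851 windows, 16.9% held at least 1 match, and of the 7 genes only *Sp5* did. Its matches were AACAAAG on the opposite strand, at -222 to -216 from the start, and CTTTGAT on the gene's strand, at -104 to -98. The windows of *Axin2* and *Lgr6* are shown with it because, among the genes with a window, *Axin2* had the largest positive and *Lgr6* the largest negative difference between the groups, while *Sp5* was near 0 in both. Each is written 5′ to 3′ on the strand of its gene (RefSeq, GRCm38), and capitals mark a match to the 4 words. A match, or its absence from these bases, is a description of the sequence and says nothing of binding.
Axin2 (chr11:108920099-108920398, plus strand): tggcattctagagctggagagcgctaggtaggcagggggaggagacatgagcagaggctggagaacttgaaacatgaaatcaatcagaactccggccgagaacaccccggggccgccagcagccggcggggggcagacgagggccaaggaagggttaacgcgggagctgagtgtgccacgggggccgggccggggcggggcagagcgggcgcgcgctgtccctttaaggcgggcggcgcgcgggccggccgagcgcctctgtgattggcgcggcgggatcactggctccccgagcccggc
Lgr6 (chr1:135105227-135105526, minus strand): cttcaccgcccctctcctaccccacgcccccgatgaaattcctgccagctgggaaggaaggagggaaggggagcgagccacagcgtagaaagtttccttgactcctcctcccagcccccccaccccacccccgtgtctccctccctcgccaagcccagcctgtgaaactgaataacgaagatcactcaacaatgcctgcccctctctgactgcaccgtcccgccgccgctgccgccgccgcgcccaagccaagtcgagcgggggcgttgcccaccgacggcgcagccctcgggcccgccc
Sp5 (chr2:70474673-70474972, plus strand): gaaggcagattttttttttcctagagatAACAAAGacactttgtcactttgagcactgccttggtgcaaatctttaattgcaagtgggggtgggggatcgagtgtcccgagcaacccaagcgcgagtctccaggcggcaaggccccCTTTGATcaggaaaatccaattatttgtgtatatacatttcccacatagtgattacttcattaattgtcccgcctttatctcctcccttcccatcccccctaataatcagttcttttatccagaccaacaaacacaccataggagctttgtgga

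Values are FPKM, fragment numbers scaled for gene length and for library size, so that levels can be compared between genes. Fold changes from the fit are on the log2(FPKM + 1) scale, as ME-KO minus MEC, and understate the change of genes near 0. A gene was tested if its mean over the 6 libraries was at least 1 FPKM, and it was called with an adjusted p under 0.05 (limma, Benjamini-Hochberg over all 12461 tested genes) and a log2 change beyond 0.75. The libraries had 17343 to 18741 entries above 0. *Mapk8*, which encodes JNK1, was at 22.5 ± 2.98 FPKM (SD, n = 3) in MEC and at 26.4%, 13.9% and 6.09% of that mean in lines 199, 233 and 336. *Mapk9*, which encodes JNK2, was at 22.7 ± 1.53 FPKM in MEC and at 33.6%, 13.9% and 13.5% of it in the same lines. By immunoblot, the paper found no JNK protein in ME-KO tumor cells. Values per gene do not tell which exons the remaining RNA came from.

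The tumor lines were unlike each other in cell type markers. All 7 luminal markers had lower means in ME-KO, 5 of them called, where 7.26% of all tested genes were called lower. Their sums were 5369 to 8927 FPKM in MEC and 790 to 2135 FPKM in the lines. The 6 basal and myoepithelial markers summed to 1282 to 2242 FPKM in MEC and to 9.92 to 1865 FPKM in the lines, and none of the 6 was at 0 in every library. Line 199 held the upper end, with *Krt5*, a basal keratin, at 608 FPKM against 1.33 in line 233 and 15.3 in line 336. The 6 fibroblast markers summed to 95.7 to 179 FPKM in MEC and to 1.82 to 1081 FPKM in the lines. The sum was again highest in line 199, where the collagen gene *Col1a1* was at 600 FPKM. That line was above every MEC library in *Col1a1*, *Col1a2*, *Col3a1* and *Pdgfra* but below every one in *Dcn* and *Lum*. *Dcn* was at 0.311 FPKM there against 3.29 to 6.62 in MEC, and *Lum* at 0.0264 against 0.507 to 1.28. Endothelial markers summed to 1.67 to 13.9 FPKM in MEC and 0.164 to 0.43 FPKM in the lines. Adipocyte markers summed to 1.28 to 11.7 FPKM in MEC and 0.0898 to 1.17 FPKM in the lines. Leukocyte markers summed to 20.2 to 39.8 FPKM in MEC and 0.795 to 23.5 FPKM in the lines. Most of the MEC leukocyte sum was *Lyz2*, at 16.5 to 32.9 FPKM, and nearly all of the 23.5 FPKM in line 336 was *Cd68*. In the lines *Lyz2* was at or under 0.0182 FPKM and *Ptprc* at or under 0.0146 FPKM. The adipocyte gene *Plin1* was listed at 0 in every library. In bulk RNA, fewer cells of a type and less RNA per cell cannot be told apart.

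Of the 10 genes, 7 passed the filter on low values and 3 (*Nkd1*, *Sp5* and *Lgr5*) did not. *Axin2* and *Notum* passed only through their ME-KO values. Among the 7, *Lgr6*, *Nkd2* and *Rnf43* were called lower in ME-KO, where 7.26% of all tested genes were called lower, and none was called higher, where 2.64% were. *Axin2*, *Notum* and *Znrf3* each had a positive change with an unadjusted p under 0.05 in limma, as had 12.4% of all tested genes. This is a description only, since *Axin2* and *Notum* passed the filter through the group where they were high. By values alone, every ME-KO library lay above every MEC library for *Axin2*, *Notum* and *Znrf3* and below every one for *Rnf43*, *Nkd2*, *Lgr5* and *Lgr6*. Of all tested genes, 18.5% had all ME-KO libraries above and 18.7% had all below.

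**Figure D1:**
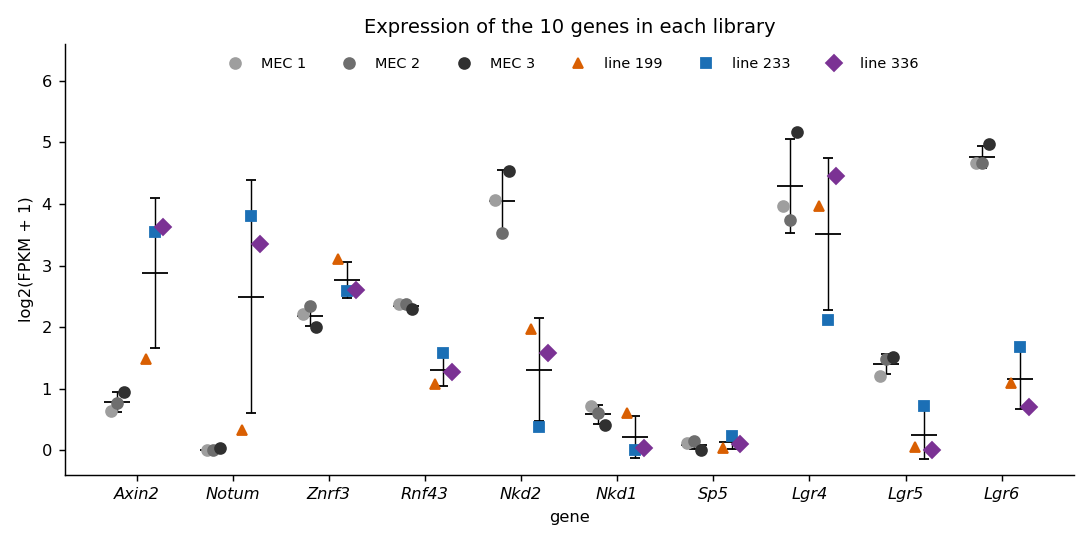
Expression of the 10 genes as log2(FPKM + 1), with 1 point per library (circles MEC 1 to 3, triangles line 199, squares line 233, diamonds line 336) and bars for the mean ± SD of each group of 3. *Axin2* and *Notum* are high in lines 233 and 336 and much lower in line 199, while *Lgr6* is near 26.5 FPKM in MEC and at or under 2.18 FPKM in all 3 lines.

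By values, the feedback inhibitors went in both directions between the groups. Those higher in every line were not called, and for *Axin2* and *Notum* lines 233 and 336 carried most of the difference. *Axin2*, the scaffold of the destruction complex, was at 0.55, 0.699 and 0.935 FPKM in MEC 1, 2 and 3 and at 1.79, 10.7 and 11.3 FPKM in lines 199, 233 and 336. The groups did not overlap, but line 199 was nearer to MEC than to the other two lines. The ratio of the group means was 10.9, and the log2 fold change of 2.10 (SE 0.59, 95% confidence interval 0.69 to 3.52) missed the threshold in limma with an adjusted p of 0.0731. With line 199, the lowest of the lines, left out, it was 2.81 with an adjusted p of 0.00158 (limma). In that fit 4.57% of tested genes were called higher. Leaving out the lowest line can only raise the change, so that fit is a description only. The change was 1.77 without line 233 and 1.73 without line 336, with adjusted p of 0.157 and 0.152 (limma). The exact permutation test (two-sided) gave p = 0.1, the smallest that 3 against 3 allows. *Axin2* shares 3.8% of its exonic bases with the antisense gene *Gm11670*, which was between 0 and 0.514 FPKM in the 6 libraries and under *Axin2* in each of them.

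*Notum*, the secreted enzyme that inactivates WNT, was listed at 0 in MEC 1 and MEC 2 and at 0.0228 FPKM in MEC 3. It was at 0.255 FPKM in line 199, 13 FPKM in line 233 and 9.18 FPKM in line 336. Lines 233 and 336 thus held nearly all of the *Notum* signal, and they were also the highest libraries for *Axin2*. The log2 fold change of 2.48 (SE 0.89, interval 0.35 to 4.62) was not called in limma (adjusted p = 0.131). It was 3.57 (adjusted p = 0.0014) in the limma fit without line 199, again the lowest line, 1.83 (0.254) without line 233 and 2.06 (0.25) without line 336. The fit without line 199 is a description only here too. No fold of means is given against a group with libraries listed at 0. Of the exonic bases of *Notum*, 29.4% overlap the antisense gene *Notumos* and 8.72% overlap *Myadml2os*, and whether counting used the strand is not given in the sources used here, so reads from these genes may be included.

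Among the Naked cuticle genes, which encode inhibitors that bind Dishevelled, *Nkd2* carried most of the signal and was low in every tumor line. It was at 15.8, 10.5 and 22.2 FPKM in MEC 1, 2 and 3 and at 2.93, 0.291 and 2 FPKM in lines 199, 233 and 336. The highest line was below the lowest MEC library. Its mean was 9.28-fold lower in ME-KO, with a log2 fold change of -2.73 (SE 0.47, interval -3.87 to -1.60, adjusted p = 0.0195 in limma). The call was lost when MEC 1, 2 or 3 was left out, with adjusted p from 0.059 to 0.0876. Of the summed FPKM of the 2 genes, *Nkd2* made up 95.2% to 98.5% in MEC and 84.8% to 100% in the lines.

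*Nkd1* was at 0.646, 0.527 and 0.332 FPKM in MEC and at 0.523, 0 and 0.0256 FPKM in lines 199, 233 and 336. Line 199 lay inside the MEC range and the other two lines lay below it, so the groups overlapped (exact permutation p = 0.2). With no filter on low values its log2 change was -0.37 (SE 0.19, adjusted p = 0.318 in limma). Without line 199 it was -0.56 with an adjusted p of 0.0397 (limma), short of the 0.75 needed for a call. That line was the highest of the lines, so this fit too is a description only.

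*Sp5*, a direct β-catenin target in many tissues, was close to 0 everywhere, at 0.0881, 0.107 and 0 FPKM in MEC and 0.0278, 0.177 and 0.0726 FPKM in the lines. The groups overlapped, and the log2 change without a filter was 0.04 (SE 0.06, adjusted p = 0.768 in limma). The libraries highest in *Axin2*, lines 233 and 336, were thus at or under 0.177 FPKM of *Sp5*, the gene whose window holds both marked words above.

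The 2 membrane ubiquitin ligase genes differed in direction between the groups. *Rnf43* was at 4.17, 4.17 and 3.88 FPKM in MEC and at 1.1, 2 and 1.41 FPKM in lines 199, 233 and 336, with all lines lower. Its mean was 2.71-fold lower, with a log2 fold change of -1.03 (SE 0.21, interval -1.55 to -0.52, adjusted p = 0.0327 in limma). This call held in 6 of 12 alternative fits and was lost without any 1 MEC library, without line 336, with quantile normalization and with no filter, at adjusted p from 0.0655 to 0.153.

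*Znrf3* was at 3.61, 4.07 and 3.01 FPKM in MEC and at 7.63, 5.01 and 5.08 FPKM in lines 199, 233 and 336. Here line 199 was the highest and the other two lines were close to each other. The ratio of means was 1.66, and the log2 fold change of 0.58 (SE 0.22, interval 0.06 to 1.11, adjusted p = 0.147 in limma) was not called under any of 12 alternatives. Without line 199 it was 0.41 (adjusted p = 0.192 in limma).

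The summed level of *Rnf43* and *Znrf3*, 7.63 ± 0.688 FPKM over the MEC libraries and 7.41 ± 1.17 over the lines (SD, n = 3), differed by less than the spread of the libraries. Its make-up differed. *Znrf3* was 0.868, 0.975 and 0.776 times *Rnf43* in MEC 1, 2 and 3. In lines 199, 233 and 336 it was 6.94, 2.5 and 3.61 times *Rnf43*. By these ratios *Rnf43* was the higher of the pair in every MEC library and *Znrf3* in every tumor line. The lack of overlap in the ratio (exact permutation p = 0.1) follows from the 2 genes lying apart in opposite directions. It is no further evidence.

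**Figure D2:**
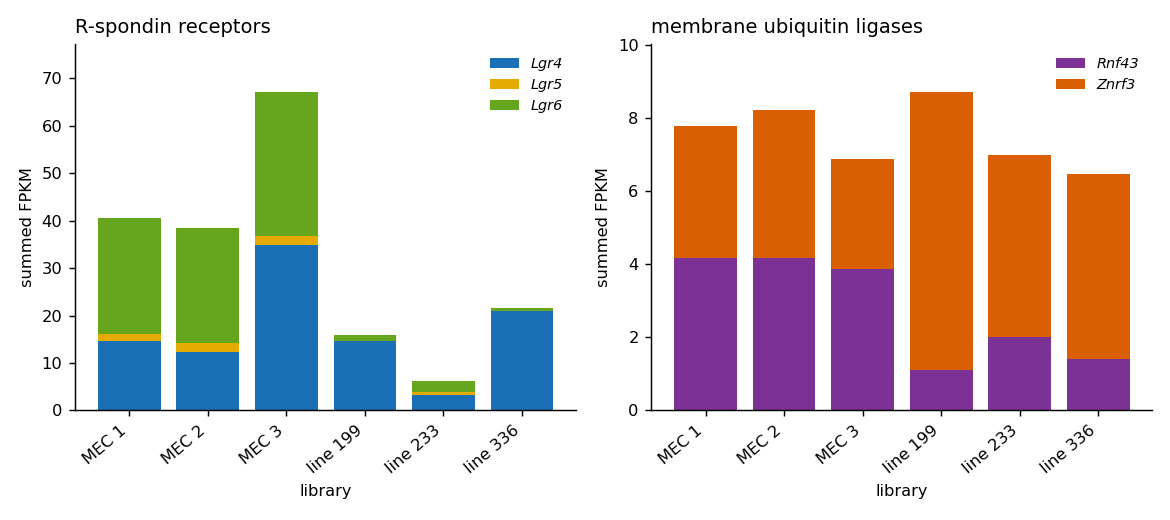
Summed FPKM of the R-spondin receptor genes (left) and of the membrane ubiquitin ligase genes (right), as bars stacked by gene, in each of the 6 libraries. The receptor sum is 38.5 or more in MEC and 21.6 or less in the lines, which hold little *Lgr6*, while the ligase sum lies between 6.49 and 8.73, with *Znrf3* the larger share in the lines.

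The R-spondin receptor genes together were at 40.5, 38.5 and 67.2 FPKM in MEC and at 15.9, 6.15 and 21.6 FPKM in lines 199, 233 and 336. *Lgr6* showed the largest fall among the 10 genes. It was at 24.5, 24.3 and 30.5 FPKM in MEC and at 1.12, 2.18 and 0.622 FPKM in the lines, and the groups lay far apart. The mean was 20.2-fold lower in ME-KO, with a log2 fold change of -3.62 (SE 0.28, interval -4.29 to -2.95, adjusted p = 0.00168 in limma). By p it ranked 54 of the 12461 tested genes, and it was called in 13 of 13 alternative fits, with log2 changes of -4.39 to -3.40. Line 199, with *Krt5* at 608 FPKM and *Krt14* at 521 FPKM, above every MEC library in both, was no exception for *Lgr6*. Line 199 was also above every MEC library in *Trp63*, a basal transcription factor gene, at 15.6 FPKM, and held 719 FPKM of *Acta2*, the smooth muscle actin gene, against 736 to 1452 FPKM in MEC. The smooth muscle myosin gene *Myh11* and the oxytocin receptor gene *Oxtr*, also myoepithelial markers, were at or under 0.0812 FPKM in all 3 lines, against 22.4 to 41.8 and 5.05 to 25.9 FPKM in MEC. The part of these cells in the *Lgr6* difference was not tested.

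*Lgr5*, best known as a marker of intestinal crypt stem cells, was at 1.31, 1.78 and 1.86 FPKM in MEC and at 0.0306, 0.636 and 0 FPKM in lines 199, 233 and 336. All lines were lower, but its mean over the 6 libraries, 0.935 FPKM, was just under the filter. In the fit of 21813 genes with no filter, in which 3.82% were called lower, its log2 fold change was -1.15 (SE 0.23, interval -1.72 to -0.58, adjusted p = 0.0473 in limma). Of 11 alternatives to that fit, only 2 kept the call.

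*Lgr4*, the most widely expressed of the 3 receptors, was at 14.7, 12.4 and 34.8 FPKM in MEC and at 14.7, 3.33 and 20.9 FPKM in the lines. Lines 199 and 336 lay within the MEC range and line 233 lay below it. The log2 fold change was -0.78 (SE 0.68, interval -2.40 to 0.85, adjusted p = 0.486 in limma), and with 1 library left out it ran from -1.25 without line 336 to -0.07 without line 233. *Lgr4* made up 32.2% to 51.8% of the receptor sum in MEC and 92.8%, 54.2% and 97.1% in lines 199, 233 and 336, and *Lgr6* went from 45.4% to 63.2% down to 7.04%, 35.5% and 2.89%.

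The ligands of these receptors were near 0. The 4 R-spondin genes *Rspo1* to *Rspo4* summed to 0.193 to 0.521 FPKM in MEC and 0.028 to 0.451 FPKM in ME-KO, and none reached the filter. *Rspo1* was at 0.231, 0.521 and 0.18 FPKM in MEC and at 0.12 FPKM in line 199, and it was listed at 0 in lines 233 and 336. *Rspo2* was above 0 only in line 199, at 0.301 FPKM. *Rspo3* was listed at 0 in all MEC libraries and was at 0.0305, 0.028 and 0.119 FPKM in the lines. *Rspo4* was above 0 only in MEC 3, at 0.0126 FPKM.

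The order of the 10 levels differed between the groups. In MEC it ran *Lgr6*, *Lgr4*, *Nkd2*, *Rnf43*, *Znrf3*, *Lgr5*, *Axin2*, *Nkd1*, *Sp5* and *Notum*, from 26.5 to 0.00759 FPKM. Neighbours whose library ranges overlapped were *Lgr6* with *Lgr4*, *Lgr4* with *Nkd2*, *Rnf43* with *Znrf3*, *Axin2* with *Nkd1* and *Sp5* with *Notum*. In ME-KO it ran *Lgr4*, *Axin2*, *Notum*, *Znrf3*, *Nkd2*, *Rnf43*, *Lgr6*, *Lgr5*, *Nkd1* and *Sp5*, from 13 to 0.0926 FPKM, and only *Znrf3* and *Nkd2* were neighbours with ranges apart. *Axin2* went from place 7 to place 2, *Notum* from place 10 to place 3 and *Lgr6* from place 1 to place 7. These are places of group means, to which lines 233 and 336 gave most of the *Axin2* and *Notum*. In line 199 alone, *Axin2* was in place 4, behind *Lgr4*, *Znrf3* and *Nkd2*, and *Notum* in place 8.

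Each line was also set against the MEC libraries on its own, counting a gene as above or below when it lay beyond all 3 MEC values and more than 0.75 from their mean on the log2 scale. In line 199, 1 of the 7 tested members was above (*Znrf3*, by 0.93) and 3 were below (*Lgr6*, *Nkd2* and *Rnf43*), where 12.8% of all tested genes were above and 16.9% below. In line 233, *Axin2* and *Notum* were above, by 2.77 and 3.80, and *Lgr4*, *Lgr6*, *Nkd2* and *Rnf43* were below, where 9.92% of genes were above and 17.5% below. In line 336, *Axin2* and *Notum* were above, by 2.84 and 3.34, and *Lgr6*, *Nkd2* and *Rnf43* were below, where 11.2% of genes were above and 18.2% below. *Axin2* and *Notum* passed the filter only through their ME-KO values, so their being above in lines 233 and 336 is a description only. The differences of *Axin2* and *Notum* in line 199 were 0.70 and 0.32, under the bound. The 3 lines therefore shared the 3 low genes, and lines 233 and 336 shared the 2 high ones. This rests in part on values at the bound, since *Rnf43* in line 233 was at -0.75 after rounding and *Axin2* in line 199 at 0.70. With 1 library per line, these differences have no replicate check.

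**Figure D3:**
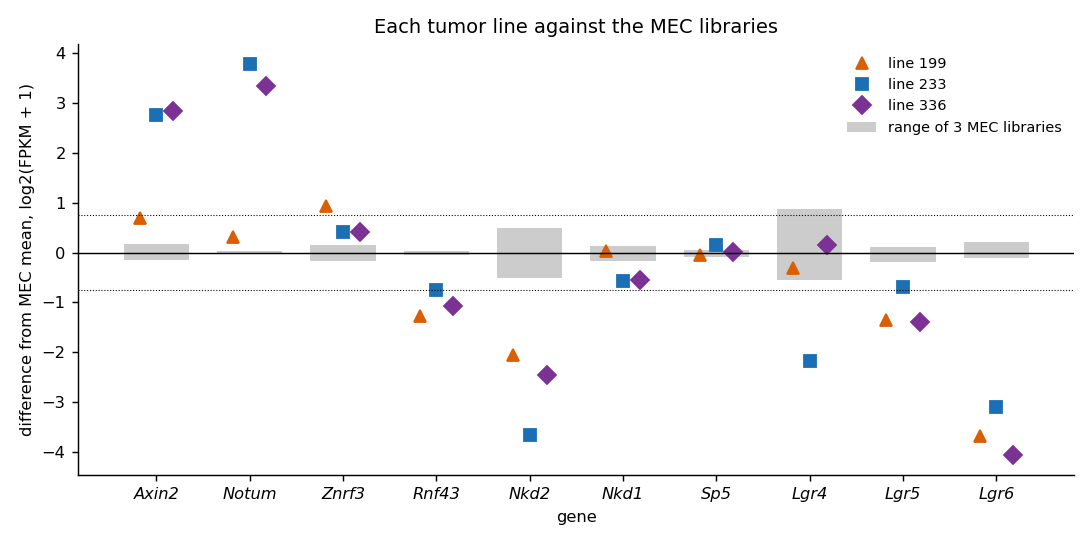
Difference of each tumor line from the mean of the 3 MEC libraries on the log2(FPKM + 1) scale, with grey bars for the MEC range and dotted lines at 0.75 to either side of 0. *Lgr6* lies at -4.07 to -3.10 in the lines, whereas *Axin2* and *Notum* lie at 2.77 or more only in lines 233 and 336.

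**Figure D4:**
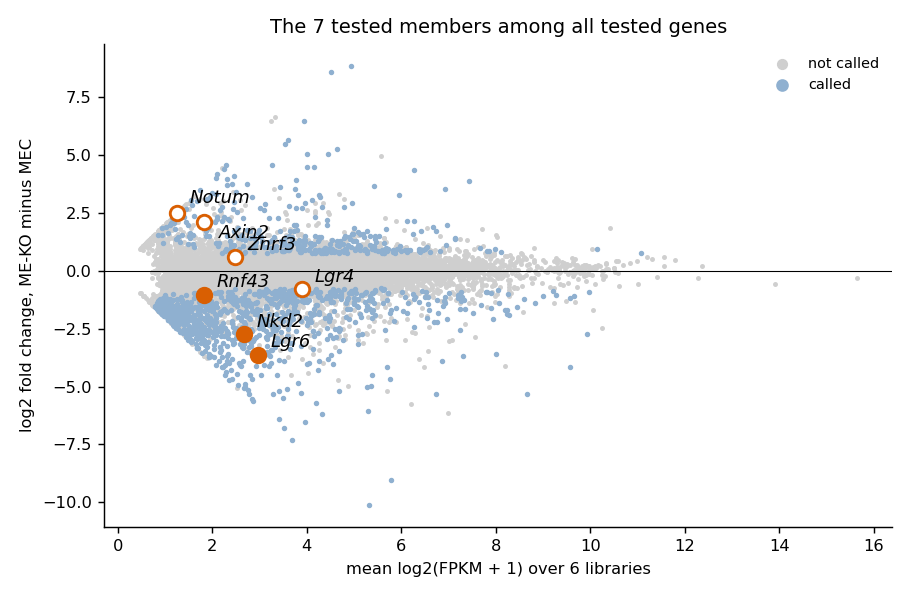
Log2 fold change (ME-KO minus MEC) against mean log2(FPKM + 1) for all 12461 tested genes, with the 7 tested members as large orange circles, filled when called. *Lgr6*, *Nkd2* and *Rnf43* are filled and lie below 0, and *Axin2* and *Notum* are open circles above 2 at low mean expression.

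Other genes of the pathway were grouped by role. The 17 genes of the destruction complex and the Dishevelled proteins, where signals from the receptors converge, were all tested and none was called (limma), with a median log2 change of 0.04 against 0.01 over all tested genes. *Ctnnb1*, which encodes β-catenin and is the highest of them, was at 237, 233 and 303 FPKM in MEC and 135, 334 and 278 FPKM in lines 199, 233 and 336 (adjusted p = 0.823).

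Of the 10 tested Frizzled and LRP receptor genes, 3 were called lower and none higher, against 7.26% and 2.64% of all tested genes, and the median change was -0.96. *Fzd4* was at 3.9, 4.62 and 2.78 FPKM in MEC and 0.913, 0.468 and 0.481 FPKM in the lines (log2 change -1.55, adjusted p = 0.0166 in limma). The other called members were *Fzd3* (log2 change -1.45, adjusted p = 0.0198) and *Fzd5* (log2 change -1.25, adjusted p = 0.015). The ME-KO means of *Fzd3* and *Fzd4*, 0.448 and 0.621 FPKM, were under the filter, which these genes passed through their MEC values. *Lrp5*, the co-receptor with the highest mean, had means of 39.4 ± 2.84 FPKM over the MEC libraries and 29.1 ± 6.53 over the lines (SD, n = 3; adjusted p = 0.199 in limma). These receptors are the proteins that RNF43 and ZNRF3 act on.

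The 6 tested genes for WNT lipidation and secretion and for glypicans had a median change of -0.89. Among them 1 was called lower, against 7.26% of all tested genes. It was *Trabd2b*, which encodes a membrane protease that inactivates WNT, at 2.86, 2.76 and 2.89 FPKM in MEC and 0.0696, 0.00646 and 1.14 FPKM in lines 199, 233 and 336 (log2 change -1.54, adjusted p = 0.0406 in limma). *Trabd2b* too passed the filter only through MEC, and with no filter it was not called (adjusted p = 0.0545 in limma). The glypican gene *Gpc4*, the highest of the list, was at 45.8, 45.1 and 71.4 FPKM in MEC and 37.7, 12.1 and 35.4 FPKM in the lines, with the groups apart and no call (log2 change -1.03, adjusted p = 0.198 in limma).

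Of 13 tested TCF/LEF factors and cofactors, 1 was called lower and none higher, against 7.26% and 2.64% of all tested genes. The median change was -0.29. *Tcf7*, which encodes TCF1, was at 15.3, 14 and 11.7 FPKM in MEC and 4.29, 8.12 and 6 FPKM in the lines (log2 change -1.06, adjusted p = 0.0419 in limma). With no filter on low values it was not called (adjusted p = 0.0672 in limma). The corepressor gene *Ctbp1*, the highest of them, had a log2 change of 0.03 (adjusted p = 0.914 in limma).

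The list of other β-catenin target genes held 13 tested genes, with a median of -0.41. Of these, 2 were called higher and 3 lower, against 2.64% and 7.26% of all tested genes. *Bmp4*, a BMP ligand, was at 0.448, 0.798 and 0.211 FPKM in MEC and 3.96, 35.3 and 40.1 FPKM in lines 199, 233 and 336 (log2 change 3.73, adjusted p = 0.0372 in limma). It passed the filter only through the lines, where it was high. Its order over the lines was that of *Axin2*, with line 199 lowest and line 336 highest. *Myc*, a growth-promoting transcription factor, was 2.01-fold higher by means (log2 change 1.03, adjusted p = 0.0486 in limma). It was at 73.8, 78.4 and 45.3 FPKM in MEC and 138, 147 and 112 FPKM in lines 199, 233 and 336. *Sox9* and *Sox4*, transcription factors of progenitor cells, were called lower with log2 changes of -1.70 and -1.12 and adjusted p of 0.0133 and 0.0194 (limma). The third gene called lower was *Tcf7*, which is on both lists. With no filter on low values, *Sox9* and *Sox4* kept their calls. *Bmp4*, *Myc* and *Tcf7* lost theirs, at adjusted p of 0.0672, 0.0715 and 0.0672 (limma). *Ccnd1*, which encodes cyclin D1 and had the highest mean, was at 174, 167 and 119 FPKM in MEC and 330, 806 and 314 FPKM in the lines (adjusted p = 0.0586 in limma). The order of *Bmp4* over the lines was not that of *Ccnd1* or of any other called gene of this list. *Myc* and *Ccnd1* were lowest in line 336.

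**Figure D5:**
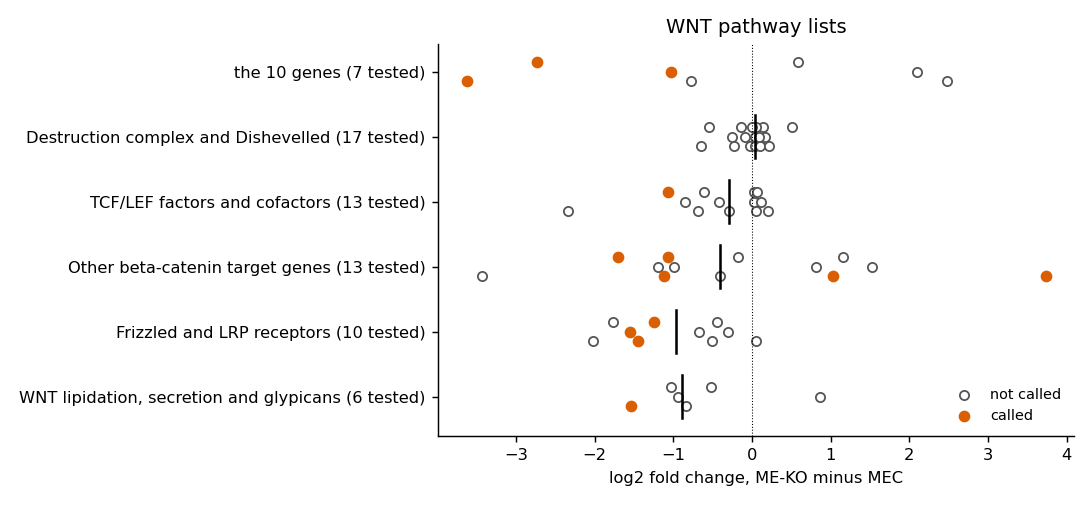
Log2 fold change (ME-KO minus MEC) of each tested gene of the group and of 5 WNT pathway lists, filled when called, with a vertical bar at the median of each list. The destruction complex genes lie close to 0 (median 0.04), the Frizzled and LRP genes mostly below it (median -0.96), and the members of the group on both sides.

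For *Axin2* and *Nkd2*, the genes with the most similar profile were found among 9216 genes with a mean of at least 5 FPKM, by Pearson's r of log2(FPKM + 1) over the 6 libraries, given as a description. For *Axin2* they were *Dhps* (r = 0.9990), *2210011C24Rik* (0.9958), *Glrx3* (0.9937), *Phlda3* (0.9935) and *Gm12669* (0.9930), all highest in lines 233 and 336. Of these, only *2210011C24Rik* spanned a range like that of *Axin2*, at 0.0651, 0.134 and 0.228 FPKM in MEC and 1.6, 21 and 16 FPKM in the lines, and none of the 5 was called. For *Nkd2* they were *Ogfrl1* (r = 0.9953), *Camta1* (0.9942), *Rab3d* (0.9941), *1810011O10Rik* (0.9915) and *Adam10* (0.9905), all called lower in ME-KO, with the lowest value in line 233. The shared direction and the shared lines, for *Axin2* as for *Nkd2*, follow from the choice by r and are no further evidence. Within the group, *Axin2* and *Notum* had r = 0.98 and *Rnf43* and *Lgr6* had r = 0.97 over the 6 libraries, which fall into 2 groups that set much of any such value.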

How the data were processed

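RNA-seq of 3 MEC libraries and 3 ME-KO tumor lines was analysed, grouped by GEO's titles and genotype labels. Reads (paired-end, 150 bp) were trimmed by the authors with Trimmomatic, mapped to the mm10 genome by TopHat2 2.0.14 with Bowtie2, and turned into gene levels by Cufflinks 2.2.1. The deposited table holds FPKM per gene and library, scaled for length and library size. Of 37755 entries, 2 hold no values and 466 join several gene names. FPKM gives no read numbers, so depth is unknown and no counting interval was computed. Judged from the smallest values, relative depth was 0.92 to 1.3 times that of MEC 1. Nothing tells whether a batch followed the groups.

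Only genes whose FPKM averaged at least 1 were tested with limma 3.58.1 (R 4.3.3) on log2(FPKM + 1) with a mean-variance trend. The 3 members under the filter were read from the same fit without it. Single values were compared by exact permutation (two-sided). Promoter windows came from RefSeq (GRCm38) and gene positions from GENCODE (GRCm38). The members and lists were chosen with earlier results of these data known. The text names all 10 members, *Mapk8* and *Mapk9*, of each pathway list up to 4 called genes and the highest gene, and the 5 genes most like *Axin2* and *Nkd2*. Other names, such as *Gm11670*, *Notumos*, *Myadml2os*, *Col1a1*, *Rspo2* to *Rspo4* and the other markers, were added after their values were seen. Another marker gene is not reported here. Alternatives were a pseudocount of 0.1, no filter, a stricter filter (mean FPKM of 5), quantile normalization, upper-quartile scaling, no trend, sample weights, each library left out, and ratios of means. P-values measure the spread between 3 preparations and 3 lines.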

Additional observations from a re-analysis of the deposited data

How the results depend on the processing

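The 1234 genes called became 738 with a filter at a mean FPKM of 5 and 1883 with sample weights, and ranged from 259 to 1966 with 1 library left out, lowest without MEC 1, with 301 without MEC 2 and 477 without MEC 3, and highest without line 199. The share of called genes that were lower was 73.3% and fell to 62.1% with quantile normalization. Members called higher, 0 in the reported fit, were 1 with quantile normalization (*Axin2*), 2 with sample weights (*Axin2* and *Notum*), and 0 to 2 with 1 library left out, the 2 again without line 199. Members called lower, 3 in the reported fit, ranged from 1 to 3 with 1 library left out, and only *Lgr6* was called without MEC 1, 2 or 3. Of the 10 genes, only *Sp5* (log2 change 0.04) changed sign, to -0.01 without MEC 3 and -0.02 without line 233, with a range of -0.02 to 0.08 over the libraries left out. The cause of these shifts was not tested, beyond the smaller number of libraries. No paired analysis was possible because the groups share no replicate numbers.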
